A study of Saccharomyces cerevisiae with 63 samples.

Results

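This account covers 100 genes of Saccharomyces cerevisiae whose mRNA was lower in the libraries in which the mRNA of IME1 was higher. The genes were chosen from 5336 gene rows, out of 5792 in the count table, that had a mean of at least 20 reads and are not IME1 itself. Read counts were scaled to the library total as CPM, the reads of a gene per 1000000 reads of the library, taken as log2(CPM + 1), and set to a mean of 0 within each of 4 replicate sets, and the 100 genes of lowest Pearson correlation with IME1 (ORF YJR094C) over 63 libraries are the members. The genotype of the strains played no part in the choice, and the correlation with IME1 is therefore a description of how the members were picked, with no test.

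The libraries came from 16 allele replacement strains built in BC187, a vineyard isolate. The strains carry every combination of the vineyard and oak alleles at 4 sporulation quantitative trait nucleotides (QTN), which are called RME1nc, RSF1c, IME1c and IME1nc. All cultures were grown for 14 h in YPD with 2% dextrose and then held for 2 h in 1% potassium acetate, so every library comes from starved cells early in the decision to sporulate, and none comes from growing cells. The labels number the replicates Repl 1 (16 libraries), Repl 2 (15), Repl 3 (16) and Repl 4 (16). The columns of the count table name the set but could not be tied to strains, so alleles are not compared here, and the libraries of a set are 15 or 16 different strains and not repeats of 1 strain. Library totals ran between 4013300 and 23261658 reads, with a median of 5631231, and no pair of libraries held identical counts.

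IME1 encodes the transcription factor that starts meiosis in budding yeast. Its gene is transcribed when a diploid cell lacks nitrogen and a fermentable sugar, and Ime1 then acts with Ume6 at early meiotic promoters. Rme1 is a repressor of IME1 transcription, and Rsf1 has a role in respiratory growth. Among the genes of mating type haploids, MF(ALPHA)1, which encodes the alpha pheromone, lay between 0 and 2.18 CPM in the 63 libraries, and MFA1, for the other pheromone, lay between 0.74 and 9.18 CPM. The receptor genes STE2 and STE3 reached 19.3 and 18.5 CPM, and 18 haploid markers summed to 166 to 211 CPM in Repl 1, 206 to 286 CPM in Repl 2, 197 to 394 CPM in Repl 3 and 160 to 323 CPM in Repl 4. STE3 and BAR1 were among the 100 genes of highest r with IME1 (r of 0.56 and 0.52). Of the 13 markers with a mean of at least 20 reads, 2 had a negative r, and the median was 0.19. The part of these markers in the results was not tested.

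IME1 itself varied widely. It had a lowest, median and highest value of 28.0, 80.2 and 231 CPM in Repl 1, of 37.2, 84.5 and 170 CPM in Repl 2, of 1.65, 5.47 and 32.3 CPM in Repl 3, and of 9.94, 31.4 and 104 CPM in Repl 4. The Repl 3 libraries were the lowest of the 4 sets, and their IME1 values rest on 9 to 196 reads. The highest Repl 3 library lay below the median of each of Repl 1 and Repl 2, and each set spanned a several-fold range, which is the range that the correlation reads. Over the same libraries the gene of highest correlation with IME1 was RIM4, which encodes an RNA-binding regulator of meiosis, at r = 0.84.

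The correlation of the 100 members with IME1 ran between -0.74 and -0.47 with a median of -0.53, where the median over all 5336 genes was 0.06. A total of 17 members had r below -0.6. The slope of a member on IME1, in log2 units per log2 unit of IME1, had a median of -0.17 and lay between -0.44 and -0.08, so the members moved far less than IME1 did. Their standard deviation within sets had a median of 0.30 log2 units, where that of all genes was also 0.30. The members thus stood out by the direction in which they varied and not by how much. At the edge of the list, CDC34, BDH1, ERG9, CDC31 and ERV2 had r of -0.48, -0.47, -0.47, -0.47 and -0.47, and the next genes, YEH1, RAD59, LNP1, SEC9 and MED6, lay outside it at r of -0.47 each. The limit of the list therefore falls in a continuous run of values.

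The mean of the members, taken as the deviation from the set mean, had r = -0.80 with IME1 over the 63 libraries. Within the sets r was -0.89 in Repl 1, -0.70 in Repl 2, -0.93 in Repl 3 and -0.75 in Repl 4. The median r of the single members was lowest in Repl 3, at -0.74, and was -0.42 in Repl 1, -0.37 in Repl 2 and -0.51 in Repl 4. The median r over all genes also differed between the sets. It was 0.16 in Repl 1, -0.008 in Repl 2, -0.13 in Repl 3 and 0.27 in Repl 4. The correlation was below 0 in all 4 sets for 82 of the 100 members, a share that the choice of members largely fixes, against 6.02% of all genes. A further 17 members were negative in 3 sets, and APC9, a subunit of the anaphase-promoting complex, was negative in 2 sets, with r of 0.07 in Repl 1 and 0.25 in Repl 2.

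**Figure D1:**
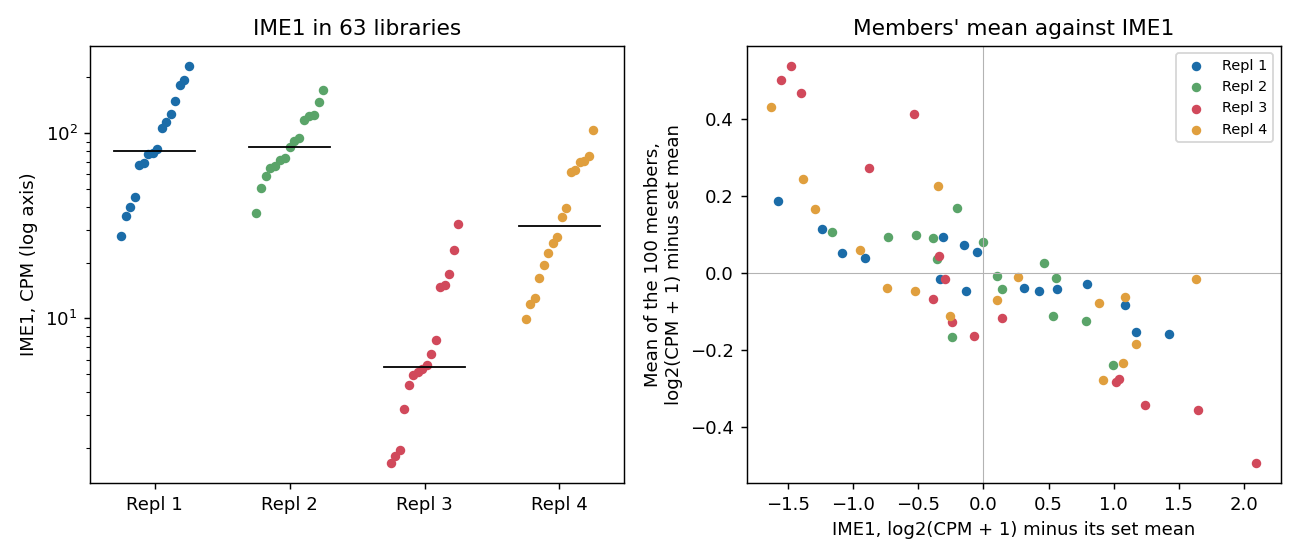
Left, IME1 in CPM on a log axis for each of the 63 libraries by replicate set, sorted within a set, with the set median as a line. Right, the mean of the 100 members against IME1, each as log2(CPM + 1) minus the mean of its set, with 1 point per library. The points fall along a descending band in every set (r = -0.80 over all libraries), and the Repl 3 libraries span the widest range on both axes.

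Because the 63 libraries that chose the members also give these values, the choice was repeated with 1 set held out. The 100 genes picked on the other 3 sets had a median r in the held-out set of -0.25 for Repl 1, -0.28 for Repl 2, -0.47 for Repl 3 and -0.31 for Repl 4. In the held-out set, r was below 0 for 73, 79, 80 and 84 of those 100 genes in Repl 1, 2, 3 and 4, where 34.3%, 51.0%, 59.9% and 27.1% of all genes had r below 0. Each of these picks shared between 52 and 83 genes with the 100 members, and the fewest were shared when Repl 3 was held out. In libraries that had no part in the choice, a negative r was thus more frequent among the picked genes than among all genes. Their median r there was closer to zero than that of the 100 members in the same set. The held-out libraries come from the same panel of strains and were scaled in the same way, so they give no independent test.

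The scaling of the libraries decided much of the membership. With library sizes from the trimmed mean of M values (TMM), 40 of the 100 members stayed among the 100 genes of lowest r, and with DESeq2 size factors 35 did. All 100 members still had a negative r under both scalings, with a median of -0.51 under TMM and -0.49 under DESeq2. LEO1, PEX19, MDG1 and RAD14 then took the 4 lowest places under TMM, while SPT5 moved to r = -0.26. The 35 genes that stayed under both scalings include GLK1, DOS2, DID2, YHC1, YGR130C, LEO1, IES2, PLB2, RGI2 and BUR6. Where no set mean was subtracted, 26 members stayed, with a median r of -0.63.

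**Figure D2:**
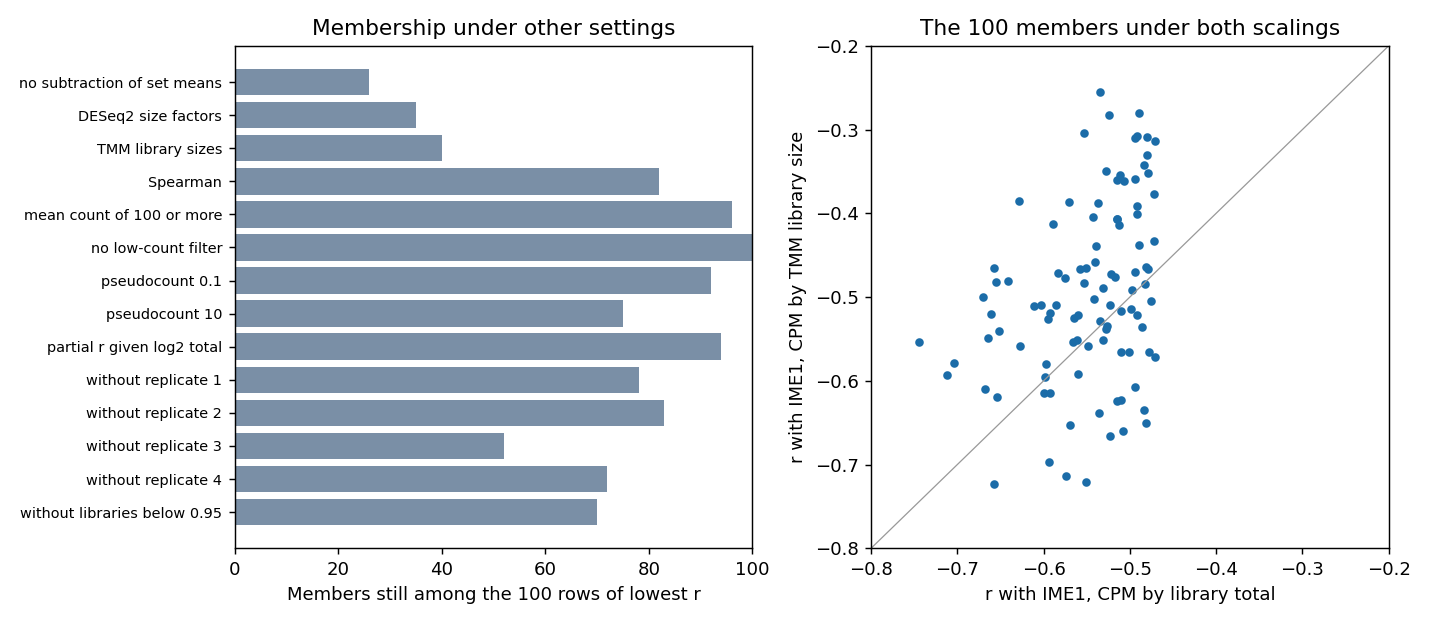
Left, the number of the 100 members that stay among the 100 genes of lowest r with IME1 under each other setting. Right, r of each member with library totals as the scale (horizontal) and with TMM library sizes (vertical), with the line of equal values. Membership falls to 40 under TMM and to 35 under DESeq2 size factors, although every member keeps a negative r.

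A group of 4 libraries stood apart from the rest of their set, with a median correlation of their expression with the other libraries of the set below 0.95 (3 in Repl 3, 1 in Repl 4). They ranked 2, 3, 5 and 7 of the 63 libraries in the members' mean, from the highest down. Over the 63 libraries, this similarity to the own set had r = -0.60 with the members' mean and r = 0.48 with IME1, and its part in the result was not tested. Without those 4 libraries, 70 members stayed among the 100 genes of lowest r and the median r was -0.50. Library depth was less closely related, with r = 0.22 between log2 total and IME1 and r = -0.21 between log2 total and the members' mean, and 94 members stayed when depth was held fixed.

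Among enzymes of carbon and redox metabolism, GLK1 (YCL040W), which encodes glucokinase, had the lowest r of all genes at -0.74. This first place depended on the scaling. Under TMM, GLK1 was at place 68 with r = -0.55, and under DESeq2 size factors GLK1 was at place 83 with r = -0.53. Its lowest, median and highest values were 2803, 3917 and 5239 CPM in Repl 1, 2424, 2827 and 3631 CPM in Repl 2, 3167, 4314 and 7235 CPM in Repl 3, and 3042, 3729 and 5194 CPM in Repl 4. The sets overlapped, and within them r with IME1 was -0.84 in Repl 1, -0.46 in Repl 2, -0.78 in Repl 3 and -0.76 in Repl 4. GLK1 was also the most abundant member per length, at 2522 CPM per kb of coding sequence. Its neighbour YCL042W, an uncharacterised ORF at 2318 CPM per kb, had r = -0.59 with IME1. It overlaps GLK1 in the annotation and followed GLK1 at r = 0.87. Both ORFs lie on the same strand, so reads in the shared stretch cannot be assigned to one of them.

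ADH5, an alcohol dehydrogenase, BDH1, which makes butanediol from acetoin, UTR1, an NAD kinase, and NNR2, an enzyme of NADHX repair, were also members. ERV1 and ERV2 are sulfhydryl oxidases of mitochondria and the endoplasmic reticulum, at r of -0.66 and -0.47. RGI2, a gene of respiratory growth, had one of the steepest slopes, at -0.34. SUE1, of cytochrome c turnover, and NFU1, of mitochondrial iron-sulfur protein maturation, belong to the same group of 12 members. GLK1, NFU1 and RGI2 were the 3 of these 12 that stayed under both other scalings.

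Membrane traffic was the known role of 14 members. DID2, which acts with the ESCRT machinery in endosomal sorting, had r = -0.70. The others include ENT3, a clathrin adaptor, the Rab GTPases YPT1 and VPS21, the SNARE proteins VAM3, TLG2 and SSO2, SEY1, which fuses membranes of the endoplasmic reticulum, and SRP54 of the signal recognition particle. DID2 had medians of 127 CPM in Repl 1, 138 CPM in Repl 2, 233 CPM in Repl 3 and 190 CPM in Repl 4, and its highest library, at 435 CPM, was in Repl 3. The r of the 14 genes lay between -0.70 and -0.48, and 5 of them stayed under both scalings. The list of secretory pathway and glycosylation genes did not share this direction: of its 49 genes, 1 was a member and 7 had a negative r, with a median of 0.25, and 4 were among the 100 genes of highest r.

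A further 12 members act in transcription by RNA polymerase II. LEO1 encodes a subunit of the Paf1 elongation complex, SPT5, SPN1 and ELF1 are elongation factors, RPB4 is a subunit of the polymerase itself, MED2 belongs to Mediator, BUR6 to the NC2 regulator, and TAF10, TOA1, TFA1 and TFB6 to the general factors TFIID, TFIIA, TFIIE and TFIIH. RTT103 binds the polymerase's tail at the end of transcription. Their r lay between -0.66 and -0.50 and their slopes between -0.21 and -0.08. LEO1 ran between 42.1 and 63.1 CPM in Repl 1, 23.6 and 39.7 CPM in Repl 2, 42.6 and 114 CPM in Repl 3, and 63.6 and 118 CPM in Repl 4. The Repl 2 values of LEO1 lay below all values of the other 3 sets, and in that set its r was only -0.07.

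Chromatin genes gave 9 members: IES2 and INO80 of the INO80 remodeler, EAF5 and EAF6 of the NuA4 acetyltransferase, the acetyltransferase SAS3, SIF2 and SAP30 of deacetylase complexes, RSC58 of the RSC remodeler, and SET4. Their r lay between -0.66 and -0.48. In mRNA processing, export and decay there were 8: YHC1 of the U1 particle, LSM4, SMB1 and CEF1 of the splicing machinery, FIP1 of the polyadenylation factor, NAB2 and MTR2 of mRNA export and the exonuclease XRN1. FIP1 lies next to IME1 on the chromosome and had r = -0.57 with it. These role groups were drawn up after the members' values were seen and carry no test. The other genes were not sorted by role, so the size of a group cannot be set against its share of all genes.

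**Figure D3:**
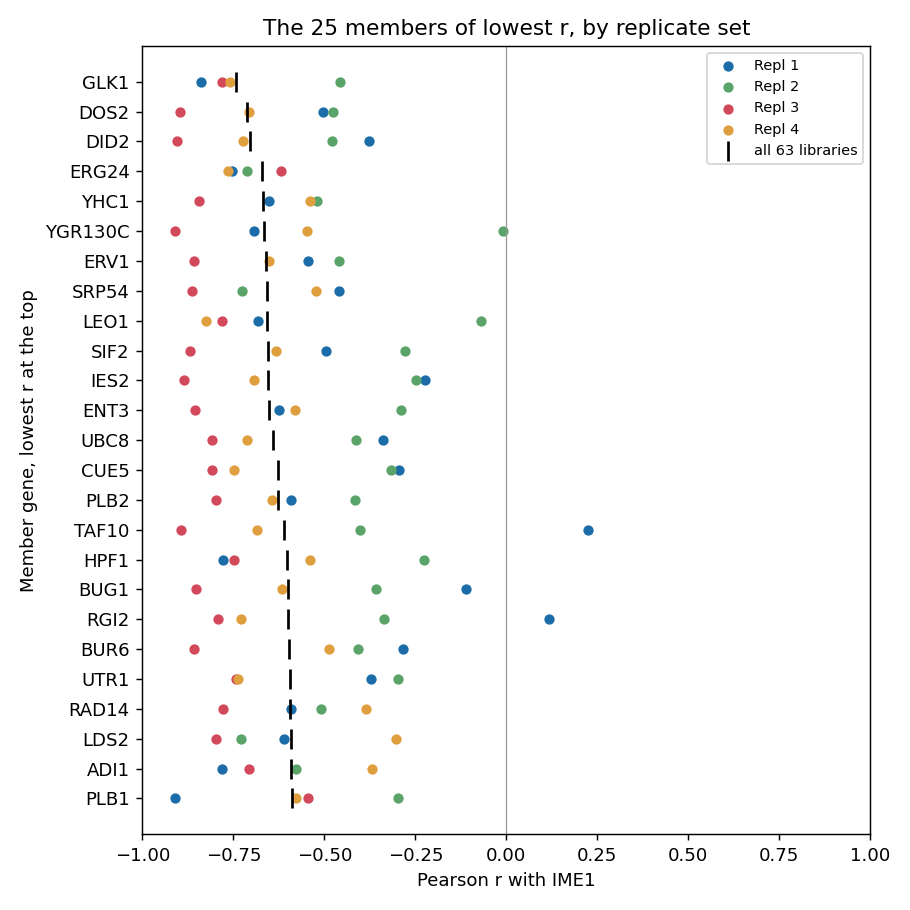
Pearson r with IME1 for the 25 members of lowest r, in each replicate set (coloured points) and over all 63 libraries (black bars). The Repl 3 points lie farthest to the left for most genes, and TAF10 and RGI2 have a positive r in Repl 1.

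Sterol and phospholipid genes gave 5 members. ERG24, the sterol reductase, had r = -0.67 and ERG9, squalene synthase, r = -0.47, and ECM22 encodes an activator of sterol genes. ERG24 was even across the sets, with r of -0.75 in Repl 1, -0.71 in Repl 2, -0.62 in Repl 3 and -0.76 in Repl 4. Of 29 sterol genes on the list used here, 20 had a negative r, with a median of -0.10, and these 3 were the only members. ERG24, ERG9 and ECM22 all left the 100 genes of lowest r under both other scalings, at places 146, 412 and 203 under TMM. PLB1 and PLB2, which encode lysophospholipases of similar sequence, lie side by side with ADI1, a gene of methionine salvage, and all 3 neighbours were members.

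At the cell surface, HPF1, a cell wall mannoprotein, had the steepest slope of all members at -0.44. Its lowest, median and highest values were 1000, 2517 and 5281 CPM in Repl 1, 900, 2166 and 6210 CPM in Repl 2, 1780, 4588 and 14202 CPM in Repl 3, and 2548, 4412 and 8048 CPM in Repl 4. Its values overlapped widely between the sets, and the highest library, in Repl 3, had 4.97 CPM of IME1. CSS1, a relative of HPF1, the flocculin FLO10, the wall glucosidase SUN4, the aquaglyceroporin AQY3 and the vacuolar amino acid transporter AVT6 belong to the same group. The list of cell wall genes did not share this direction. Of its 35 genes, 1 was a member and 9 had a negative r, with a median of 0.15, and 3 were among the 100 genes of highest r. HPF1, CSS1 and FLO10 have repeats that they share with other genes, and only reads that aligned to 1 place were counted, so their levels are uncertain.

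**Figure D4:**
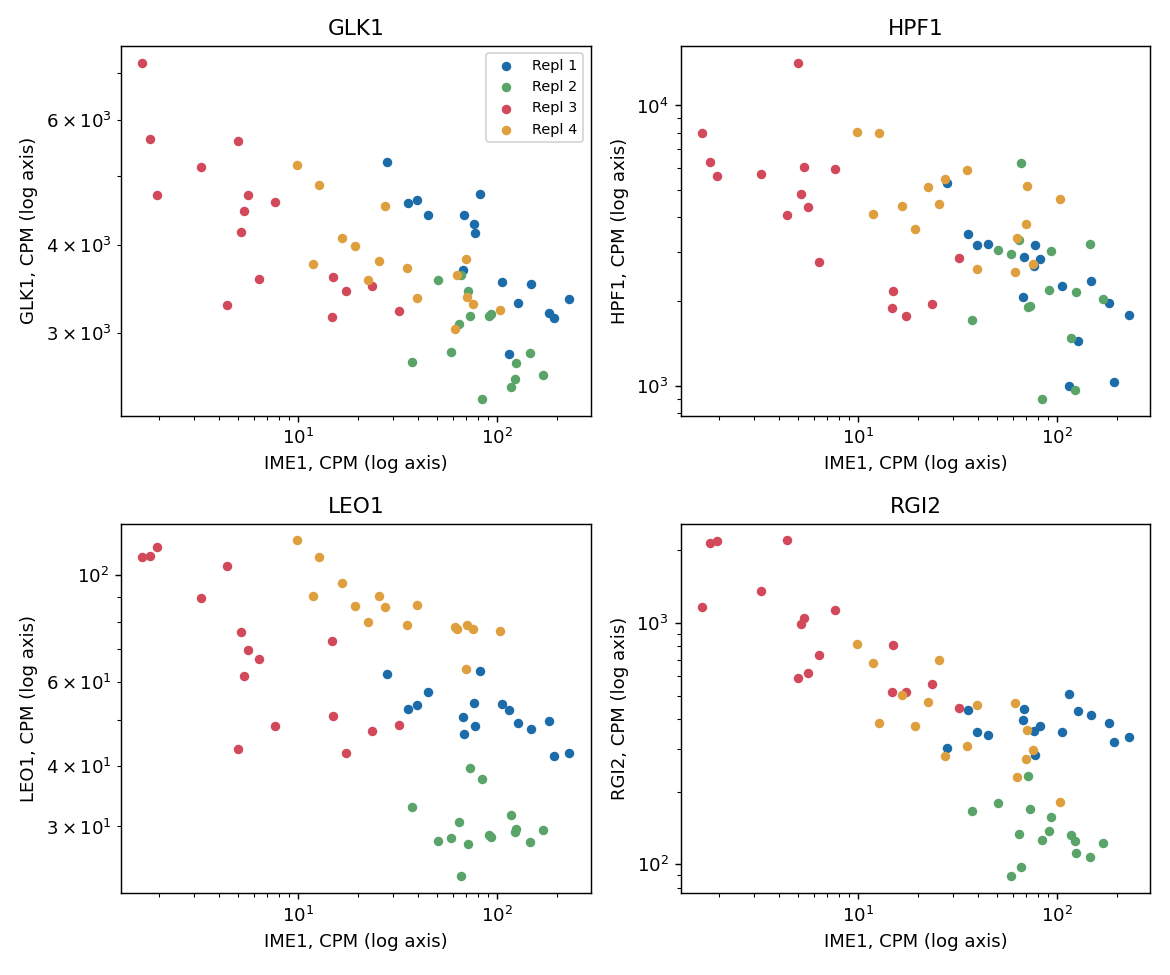
GLK1, HPF1, LEO1 and RGI2 in CPM against IME1 in CPM, both on log axes, with 1 point per library coloured by replicate set. Within most sets the points descend to the right, but the sets lie at different heights. The Repl 2 values of LEO1 and RGI2 sit below those of Repl 1 at about the same IME1 level.

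Steep slopes were also found in YJL213W (-0.38) and YJR115W (-0.35), both uncharacterised, in DOS2 (-0.31), in SPG1 (-0.31), a gene needed for survival in stationary phase, and in SRC1 (-0.28), which encodes an inner nuclear membrane protein. UBC8, a ubiquitin-conjugating enzyme that acts in the breakdown of a gluconeogenic enzyme, had a slope of -0.26. The proteasome and ubiquitin list, on which it does not stand, had no member. Members known from spore formation were LDS2, of the developing spore wall, with r = -0.59 and a mean of 16.4 CPM, and SPO73, of prospore membrane growth, with r = -0.48 and a mean of 42.7 CPM.

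Of 39 gene lists, the haploid markers not counted, 7 held a member and 32 held none, and 13 members stood on a list. Besides the 3 sterol genes these were SAS10 and FAF1 among 116 genes of ribosome biogenesis, RPC37 and RPC31 among 36 genes of RNA polymerases I and III, GLK1 and ADH5 among 25 genes of glycolysis and fermentation, PEX19 and PEX22 among 43 genes of the peroxisome and fatty acid oxidation, FLO10 among 35 cell wall genes and SRP54 among 49 secretory genes. Of the other 23 genes on the list of GLK1 and ADH5, 1 had a negative r, and their median was 0.19. None of 22 early meiotic genes was a member, and 3 of them had a negative r, with a median of 0.22. None of 137 cytosolic ribosomal protein genes was a member either (median 0.26). The members were 100 of the 5336 genes, and at that share a short list would hold few members or none. They made up 1.72% of the ribosome biogenesis list, 2.04% of the secretory list, 2.86% of the cell wall list and 10.3% of the sterol list. Membership of a list was not tested.

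The members rose and fell together. The correlation between members had a median of 0.48 over 4950 pairs, of which 44 were negative, where the median over all pairs of genes was 0.19, and a single axis of variation held 48.3% of their variance. Genes chosen for a shared correlation are bound to correlate in part. Clustering split them into groups of 53, 35, 11 and 1, led by ERG24, DOS2, GLK1 and NNR2. The group of 11 (GLK1, HPF1, PLB1, YCL042W, ADH5, YJR115W, SPT5, SUN4, AVT6, CSS1 and ECM22) had its lowest median r in Repl 1 (-0.74), while the groups of 53 and 35 had theirs in Repl 3 (-0.75 and -0.74). Toward RME1 the members had a median r of -0.04, where all genes had 0.05, and toward RSF1 the members had 0.13, where all genes had 0.39.

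Members were somewhat more abundant and shorter than the other genes. Their median level was 70.2 CPM per kb, where that of all genes was 36.5 CPM per kb. Their median coding length was 1030.5 bases against 1263 for all genes. The 100 genes of highest r had medians of 48.2 CPM per kb and 1369.5 bases. Without the division by length, the median level was 71.4 CPM for the members, 74.8 CPM for the 100 genes of highest r and 46.7 CPM for all genes. A higher level in CPM was thus not particular to the members. The members lay on all 16 chromosomes, and 4.0% of them overlap another annotated ORF, as do 2.06% of all genes and 6.0% of the 100 genes of highest r.

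The promoters of the members were searched for 12 short motifs in the 250 bases before to the 50 bases after the start codon, on both strands, in the R64 sequence of the laboratory strain. The Mig1 core CCCCGC, which Mig1 binds in glucose repression, was in 6.0% of the members' windows and in 2.57% of all windows. GLK1 and YCL042W share 1 of these matches, so that the 6 members hold 5 distinct sites. The GATA core GATAAG was in 21.0% of the members and 14.7% of all, and the stress response element AGGGG in 25% of the members and 22% of all. The Ume6 site core GGCGGC, known as URS1, was in 3.0% of the members and 4.54% of all, the PAC element GATGAG in 14.0% and 19.9%, and the Mlu I cell cycle box ACGCGT in none of the members and 3.26% of all. The other motifs, given in the order members and then all genes, were TGACTC of Gcn4 (8.0% and 8.45%), TGAAACA of the pheromone response (6.0% and 7.10%), CACGTG of Pho4 and Cbf1 (2.0% and 3.09%), CCAAT of the Hap complex (40% and 44.2%), GAANNTTC of heat shock (10% and 12.1%), and CACAAA of middle sporulation genes (23.0% and 18.6%). These are matches of letters, with no test, and a motif that is absent from this window may lie outside it. Windows with the motif in capitals are shown, 5′ to 3′ in the direction of the gene, for the gene of lowest r and for 4 others among the 25 of lowest r. CCCCGC of GLK1 lies 218 bases before the start codon and AGGGG 174 bases before it, in a run in which AGGGG recurs on the other strand on both sides. The match of DID2 lies 102 bases, of BUR6 117 bases, of ENT3 124 bases and of PLB2 64 bases before the start codon, and those of DID2 and PLB2 are on the opposite strand (CCCCT and CTTATC).
GLK1, Mig1 core: ggcgcttgcaCCCCGCattataagtg
GLK1, stress response element: aacccctttcAGGGGgccccctatc
DID2, stress response element: tggaaaattgCCCCTaaagaaatga
BUR6, stress response element: cgtatacaaaAGGGGattattttat
ENT3, stress response element: gaaaagtaaaAGGGGactagaagaa
PLB2, GATA core: gccttcaaatCTTATCaagggttaga

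The subtraction of set means removed every difference between the sets before the members were chosen, so the levels of the members in the 4 sets are a measure that the choice did not use. A quasi-likelihood test (edgeR, TMM library sizes) compared each set with the mean of the other 3. The spread in this test is that among the different strains of a set. The study grew its panel on different days, and day and set cannot be told apart. Between any sets, 95 of the 100 members changed at an adjusted p under 0.05, but so did 92.3% of all genes, so that this count says little of the members.

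The directions differed between the sets. In Repl 3, in which IME1 was lower than in the other sets by a log2 difference of -2.95 ± 0.31 (SE, adjusted p = 1.06e-12), 71 members were higher and 4 were lower, where 32.4% of all genes were higher and 30.3% lower. In Repl 2, in which IME1 was higher by 1.42 ± 0.24 (adjusted p = 4.76e-07), 3 members were higher and 79 lower, where 32.5% of all genes were higher and 32.8% lower. In Repl 1, in which IME1 was also higher, by 1.81 ± 0.23 (adjusted p = 2.79e-10), the members divided, with 31 higher and 27 lower, where 35.6% of all genes were higher and 36.3% lower. In Repl 4, in which IME1 differed by -0.27 ± 0.26 (adjusted p = 0.384), 33 members were higher and 8 lower, where 25.4% of all genes were higher and 25.9% lower. The median log2 difference of the members was 0.06 in Repl 1, -0.49 in Repl 2, 0.35 in Repl 3 and 0.09 in Repl 4. With all 4 sets compared, the members ran opposite to IME1 in Repl 2 and Repl 3 and did not in Repl 1. The Repl 1 result depended on Repl 2: without that set, the members' median in Repl 1 was -0.16, where that of all genes was -0.03. With limma on log2(CPM + 1), which keeps the library totals as the scale, 12 members were higher and 45 lower in Repl 1 (20.1% and 49.5% of all genes), and 55 were higher and 2 lower in Repl 4 (39.2% and 12.3% of all genes), while Repl 2 and Repl 3 kept their directions. Without Repl 2, 50 members were higher and 7 lower in Repl 3 (30.7% and 28.6% of all genes), while 10 were higher and 45 lower in Repl 1 (30.8% and 36.5%) and 13 were higher and 29 lower in Repl 4 (27.2% and 26.8%). Without the 4 libraries that stood apart, 65 members were higher and 4 lower in Repl 3 (29.5% and 28.1% of all genes).

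**Figure D5:**
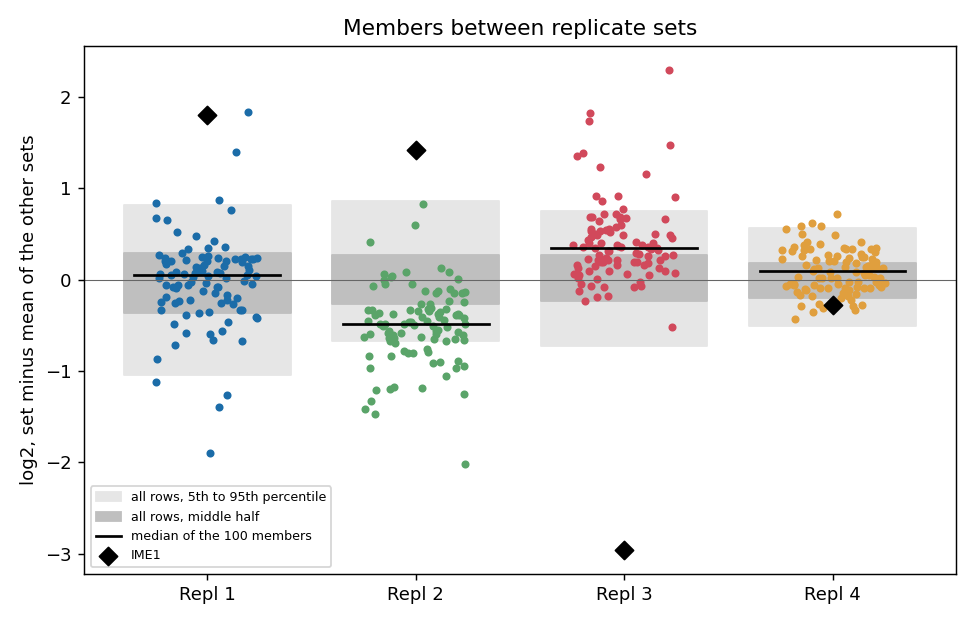
Log2 difference of each member between a replicate set and the mean of the other 3 sets, with the members' median as a line, IME1 as a diamond, and the spread of all genes as grey bands. The members' median is 0.35 in Repl 3, where IME1 is lowest, and -0.49 in Repl 2, but 0.06 in Repl 1, where IME1 is also high.

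In all, 59 members were both higher in Repl 3 and lower in Repl 2, as were 14.6% of all genes. RGI2 showed the widest such contrast, with medians of 898 CPM in Repl 3, 133 CPM in Repl 2, 365 CPM in Repl 1 and 379 CPM in Repl 4. Its log2 difference was 1.82 ± 0.14 in Repl 3 (adjusted p = 8.01e-18) and -2.01 ± 0.18 in Repl 2 (adjusted p = 1.6e-15), and the Repl 3 libraries, at 444 to 2194 CPM, did not overlap the Repl 2 libraries, at 89.0 to 231 CPM. LEO1 fell by 1.19 in Repl 2 (SE 0.09, adjusted p = 4.88e-18) and was higher by 0.41 ± 0.08 in Repl 3. PLB2 was higher by 1.23 ± 0.09 in Repl 3 (adjusted p = 2.45e-19) and lower in Repl 2, at -0.89 ± 0.10. AQY3 was higher by 1.36 ± 0.11 in Repl 3 and SPT5 by 0.64 ± 0.07, and their Repl 2 differences were -0.96 ± 0.13 and -1.20 ± 0.08. EMP46, a Golgi cargo receptor, was higher by 0.69 ± 0.08 in Repl 3 and had -1.32 ± 0.10 in Repl 2. Part of these Repl 3 differences came from the low Repl 2 levels: without Repl 2, the Repl 3 difference was 0.03 for LEO1, which no longer passed the test, 0.27 for SPT5 and 0.28 for EMP46, while it was 1.30 for RGI2, 1.06 for PLB2 and 1.17 for AQY3.

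Other members differed between sets without this order. SUE1, which had the smallest adjusted p over the 4 sets (6.32e-26), had medians of 230 CPM in Repl 1, 45.8 CPM in Repl 2, 92.1 CPM in Repl 3 and 86.9 CPM in Repl 4, so that it was highest in a set with much IME1. All 16 Repl 1 libraries of SUE1, at 201 CPM or more, lay above every other library. ADI1 and FLO10 were likewise higher in Repl 1, by 1.40 ± 0.10 and 0.87 ± 0.07, and lower in Repl 3, at -0.52 ± 0.11 and -0.17 ± 0.07, although within sets both fell as IME1 rose. Without Repl 1 the Repl 3 difference was -0.04 for ADI1, which no longer passed the test, and 0.14 for FLO10. ERG9 and CDC34 were the other members lower in Repl 3. BDH1 ran the other way, at -1.90 ± 0.13 in Repl 1 and 1.73 ± 0.11 in Repl 3. ERV1, SUN4 and YNL234W were the 3 members higher in Repl 2, and FIP1, YPT1, EAF6 and SPO73 passed no test between sets, and LOT6 missed that over the 4 sets (adjusted p = 0.0681) but was higher in Repl 3, by 0.26 ± 0.10. GLK1 was higher by 0.26 ± 0.09 in Repl 3 (adjusted p = 0.0132) and by 0.29 ± 0.09 in Repl 1, and lower in Repl 2, at -0.47 ± 0.10. HPF1 was higher by 0.67 ± 0.21 in Repl 3 (adjusted p = 0.00399) and lower in Repl 2, at -0.67 ± 0.23.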

How the data were processed

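The authors aligned reads with Bowtie 0.12.7 to S288C open reading frames (release R63-1-1), kept unique alignments with at most 2 mismatches, and deposited raw read counts per gene, the unit used here. Columns were matched to replicate sets by their prefix. CPM used the sum of the table's rows as library total and a pseudocount of 1. Gene names, lengths, overlaps and promoter windows came from RefSeq (R64, a different release, so no coordinates are given). Set differences were tested with edgeR 4.0.16 (quasi-likelihood, TMM, Benjamini-Hochberg over 5337 genes) in R 4.3.3, with limma 3.58.1 and DESeq2 1.42.0 as alternatives, and both computations were first tested on simulated data. The SE of a log2 difference was derived from the edgeR test, as the absolute difference over the square root of its F statistic. Named genes are the 25 of lowest r, those at the list's edge, the 10 most abundant, steepest and most different between sets, those on gene lists, cluster leaders, and IME1, RME1 and RSF1; the remaining members were named for their role after their values were seen. The members and lists were chosen with earlier results of these data known. Other scalings, filters, pseudocounts, tests and left-out sets were tried. A planned motif is not reported here.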

Additional observations from a re-analysis of the deposited data

How the results depend on the processing

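The number of the 100 members that stayed among the 100 genes of lowest r was 26 without subtraction of set means, 35 with DESeq2 size factors and 40 with TMM library sizes, and between 52 (without Repl 3) and 83 (without Repl 2) with a set left out. The lowest and highest counts on leaving out single libraries, chosen after seeing the data, were 83 and 99. The median r stayed between -0.63 and -0.43 under every setting run. ADI1 and ERG9 had r of 0.15 and 0.03 without subtraction of set means. Limma on log2(CPM + 1) gave 12 members higher and 45 lower in Repl 1 (20.1% and 49.5% of all genes). The edgeR counts there were 31 and 27 (35.6% and 36.3%). In Repl 4, limma gave 55 higher and 2 lower (39.2% and 12.3%), where edgeR gave 33 and 8 (25.4% and 25.9%). Limma moved the median of all genes by -0.18 in Repl 1 and 0.12 in Repl 4. With a set left out, the members higher in Repl 1 numbered 10 to 50 (30.8% to 37.5% of all genes) and those lower 17 to 45 (36.5% to 37.6%), higher in Repl 2 1 to 5 (28.8% to 35.4%), lower in Repl 3 1 to 7 (28.2% to 29.8%), higher in Repl 4 13 to 61 (23.2% to 31.3%) and lower 5 to 29 (26.8% to 27.3%). With Repl 1 left out, the Repl 3 differences of SUE1 and FLO10 turned to 0.63 and 0.14, and that of FLO10 ran between -0.42 and 0.14 over the left-out sets. Without the 4 libraries that stood apart, a choice made after seeing the data, 5 members were higher in Repl 2 (33.1% of all genes). The cause of these changes was not tested. In Repl 3, few IME1 reads limit the precision of r. Columns could not be tied to strains, so the main test paired no library of a set with one of another. The codes in the column names recur across the sets, and a replicate block by code was added after seeing the data. With it, 70 members were higher and 4 lower in Repl 3 (32.2% and 31.8% of all genes), and 4 and 79 in Repl 2 (33.2% and 32.9%). In Repl 1 the counts were 32 and 29 (36.8% and 36.4%), and in Repl 4 they were 37 and 11 (26.2% and 27.2%).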

Other observations

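The column names hold a second code beside the set, whose meaning is not given in the sources used here. The code held 66.1% of the variance of IME1 within sets, 87.2% of that of RIM4, 95.1% of that of RME1 and 52.5% of that of the members' mean, where the median of all genes was 33.1%. For RSF1 it held 30.7%, below that median, and single members had a median of 40.6%. The libraries of 1 code had both the highest mean of IME1, 1.40 log2 units above the set mean, and the lowest mean of the members, at -0.28.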
